A study of Mus musculus with 12 samples.

Results

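NF-kB is a family of dimeric transcription factors, and 10 of its genes are described here, taken from the table of read counts by gene symbol: the 5 subunit genes Nfkb1, Nfkb2, Rela, Relb and Rel, the inhibitors Nfkbia and Nfkbie, the nuclear IkB proteins Nfkbiz and Bcl3, and the deubiquitinating enzyme Tnfaip3. All 10 were found among 39017 gene IDs, and all 10 passed the filter on low counts that left 15015 genes for testing. The mice were C57BL/6 females in which experimental autoimmune encephalomyelitis (EAE), a model of multiple sclerosis, had been induced. The RNA was drawn from spinal cord with the aim of reading microglia, and markers of other cells were read as well. All 12 libraries are labelled as Tmem119-Cre:RiboTag, in which Cre under the control of the microglial gene Tmem119 switches on a tagged ribosomal protein, by which ribosome-bound RNA of the cells with Cre can be pulled down. A total of 6 libraries are labelled Kdm6a cKO (cKO 1 to 6, a conditional knockout of an X-linked histone demethylase) and 6 wildtype (WT 7 to 12). Age was not given in the sources used here. Nor is it stated that the libraries are separate animals, and p-values therefore measure the spread between libraries, which may be technical.

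In resting cells the NF-kB dimers are held in the cytoplasm by IkB proteins. In the canonical branch, signals from Toll-like, interleukin-1 and TNF receptors activate the IkB kinase complex, IkB is degraded, and dimers such as RelA with p50 (made from Nfkb1) enter the nucleus. In the noncanonical branch, the kinase NIK (Map3k14) drives the processing of p100 (Nfkb2) to p52, which pairs with RelB. NF-kB also switches on genes for its own inhibitors, which closes a feedback loop, and in microglia it is known as a driver of inflammatory gene expression.

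NF-kB dimers bind a DNA sequence called the kB site, which lies in the promoters of many of their target genes. RefSeq windows from 250 bases before to 50 bases after the transcription start (build GRCm38.p6) were at hand for 7 of the 10 genes, with several windows for some genes. Matches to the classical 10-base kB consensus, searched on both strands, were found for 6 of the 7, namely Nfkb2, Rel, Nfkbia, Nfkbie, Tnfaip3 and Bcl3. No match lay in the window of Rela. Among all 27025 genes with a window, 9.55% held a match. The median GC content was 65.2% in the members' windows and 52.7% in all windows, and its part in the count of matches was not tested. Bases before the start are shown for 4 genes as examples of the site in a subunit gene of each branch and in an inhibitor of each kind. Capitals mark the matches, and a match is a match of letters only.
Nfkb2, chr19:46304487-46304736, plus strand: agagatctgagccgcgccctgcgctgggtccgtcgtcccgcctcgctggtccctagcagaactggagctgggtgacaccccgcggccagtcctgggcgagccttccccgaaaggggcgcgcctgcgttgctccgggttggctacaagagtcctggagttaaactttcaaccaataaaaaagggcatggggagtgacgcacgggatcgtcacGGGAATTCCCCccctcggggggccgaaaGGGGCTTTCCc
Rel, chr11:23770970-23771219, minus strand: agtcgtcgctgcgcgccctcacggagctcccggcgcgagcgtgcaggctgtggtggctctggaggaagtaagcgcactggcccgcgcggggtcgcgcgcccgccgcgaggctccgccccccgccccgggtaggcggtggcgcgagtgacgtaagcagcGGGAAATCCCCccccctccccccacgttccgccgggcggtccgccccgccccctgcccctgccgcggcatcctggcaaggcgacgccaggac
Nfkbia, chr12:55492648-55492897, minus strand: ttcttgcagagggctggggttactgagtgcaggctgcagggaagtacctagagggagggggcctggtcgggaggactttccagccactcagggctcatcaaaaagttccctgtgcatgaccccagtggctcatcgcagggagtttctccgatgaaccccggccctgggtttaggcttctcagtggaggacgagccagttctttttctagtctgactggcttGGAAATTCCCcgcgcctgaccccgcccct
Tnfaip3, chr10:19015411-19015660, minus strand: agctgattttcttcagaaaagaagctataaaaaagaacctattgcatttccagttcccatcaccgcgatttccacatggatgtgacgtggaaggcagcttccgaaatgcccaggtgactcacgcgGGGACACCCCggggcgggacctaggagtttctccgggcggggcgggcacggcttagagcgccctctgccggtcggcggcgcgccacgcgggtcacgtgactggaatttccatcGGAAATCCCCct
The Nfkb2 window shown held 3 matches, of which GGGAATTCCC and GGAATTCCCC overlap, beside GGGGCTTTCC. The other windows of Nfkb2, not shown, held GGGACTTTCC and GGAATGTCCC. Rel held the overlapping GGGAAATCCC and GGAAATCCCC, and the latter string also stood 12 bases before the start of Tnfaip3, which held GGGACACCCC as well. Another window of Tnfaip3, not shown, held no match. Nfkbia held GGAAATTCCC, 29 bases before its start, and Nfkbie held GGGGGATTCC. The match of Bcl3, GGGAAGTCCC, began at base 3 of its transcript. In lists of other pathway genes, matches were found in 12 of 27 target genes (44.4%), 5 of 17 other inhibitors (29.4%), 3 of 14 receptors (21.4%), 3 of 18 adaptors and ubiquitin ligases (16.7%) and 1 of 8 kinases (12.5%).

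Library totals ran from 19040115 to 26296071 counts. All 12 microglial markers were detected, summing to 25810 to 31800 CPM in cKO and 26490 to 29770 CPM in WT, where CPM is the count scaled to the TMM-adjusted library total. Of these, 1 was called, Siglech, which was higher in cKO (log2 fold change 1.72, adjusted p = 0.00119, edgeR), and 8 of the 12 had a positive value (median 0.27). Of 6 monocyte markers, 5 reached at most 102 counts in any library (Ccr2 at most 14), while Fn1, which is not particular to monocytes, stood at 793 ± 593 CPM in cKO and 506 ± 172 CPM in WT (SD, n = 6 each). A component of neuron, glia, Schwann, ependymal, endothelial and mural markers, called the CNS marker component below, had scores of 1.41, 1.95 and 1.39 for cKO 1, 2 and 4, and scores of -0.07 or less for the other 9 libraries. The 3 high scores were all in cKO, so fits with the component as a covariate cannot fully tell it from the group. Median log2 fold changes were 0.79 for neuron, 0.35 for astrocyte, 0.25 for oligodendrocyte lineage, 0.64 for Schwann and 0.09 for ependymal markers. That of endothelial and mural markers was -0.18, against 0.03 for all genes. Among all these markers only Kdr, of the last list, was called (-1.21 ± 0.14, SE, adjusted p = 0.000333, edgeR). Kdm6a itself ran from 1.59 to 4.50 CPM in cKO and from 3.35 to 6.18 CPM in WT, and its log2 fold change of -0.70 ± 0.25 (SE) did not pass (adjusted p = 0.117, edgeR quasi-likelihood test). It passed by limma-voom with sample weights (-0.58 ± 0.21, adjusted p = 0.0487) and with the CNS marker component as a covariate (-1.27 ± 0.19, adjusted p = 0.00126). Kdm6a in the library labelled cKO 2 was inside the range of the WT libraries, so Kdm6a does not check that label. Without cKO 5 the number of genes called in the whole table moved from 882 to 2818, and without cKO 1 and cKO 2 together to 416.

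No change of a family member between cKO and WT passed the test. None of the 10 reached an adjusted p of 0.05, and none had an unadjusted p under 0.05, as 23.8% of all tested genes had (edgeR quasi-likelihood test, Benjamini-Hochberg over 15015 genes). Among all genes tested, 882 passed (5.87%, with 2.44% higher and 3.43% lower in cKO), so that a count of 0 among 10 is close to the background. The cKO and WT libraries overlapped for all 10 members, whereas they did not overlap for 4.13% of all genes. DESeq2, which called 12.3% of all genes, also called none. With limma-voom and sample weights 1 member was called, Bcl3, where 30.9% of all genes were called. In bulk RNA, fewer cells of a type and less RNA per cell cannot be told apart. The log2 fold changes of cKO over WT were negative for 8 members and positive for 2, with a median of -0.10 against 0.03 for all genes. The 95% interval of the fold change lay within 1.5-fold either way for 7 members. It was wider for Rel, Tnfaip3 and Bcl3.

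**Figure D1:**
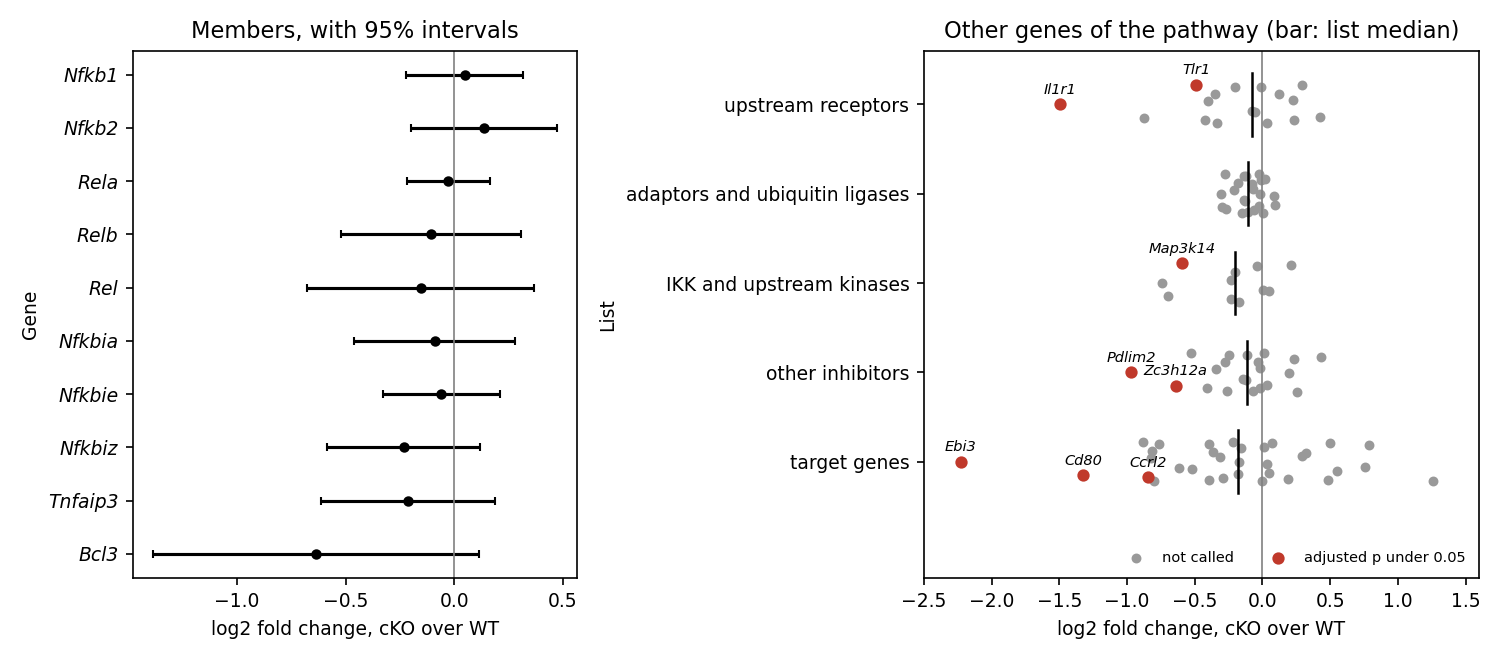
Left, log2 fold change of cKO over WT (horizontal axis) of each of the 10 members (vertical axis), with bars for the 95% interval of the edgeR fit (n = 6 libraries each). All 10 intervals include 0, and that of Bcl3 is the widest. Right, the same quantity for the tested genes of 5 other pathway lists, with 1 point per gene, a bar at the list median and the 8 genes past an adjusted p of 0.05 in red.

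Levels per length placed Nfkbia and Rela far above the other members. Counts were divided by the length of the longest coding transcript of each gene. In WT, Nfkbia stood at 96.4 ± 10.8 CPM per kb (SD, n = 6), at the 95.5th percentile of tested genes, and Rela at 86.9 ± 8.47 CPM per kb. Nfkbia was above Rela in 5 of 6 WT and 4 of 6 cKO libraries, and their ranges overlapped. Relb (34.5 ± 5.62), Nfkb1 (30.9 ± 1.96), Bcl3 (23.8 ± 6.66) and Nfkb2 (19.8 ± 1.92 CPM per kb) came next, and each overlapped its neighbour in this order. Nfkbie (13.4 ± 2.51) and Tnfaip3 (13.2 ± 1.79 CPM per kb) also overlapped, with 3 of 6 WT libraries in either order. Nfkbiz at 1.03 ± 0.15 and Rel at 0.23 ± 0.03 CPM per kb stood below all others in every library. With all annotated exons as the length, an alternative chosen after seeing the data, the WT level was 10.6 CPM per kb for Nfkb1, 19.6 for Relb, 17.8 for Bcl3 and 8.05 for Tnfaip3, so places in this order depend on the transcript assumed.

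**Figure D2:**
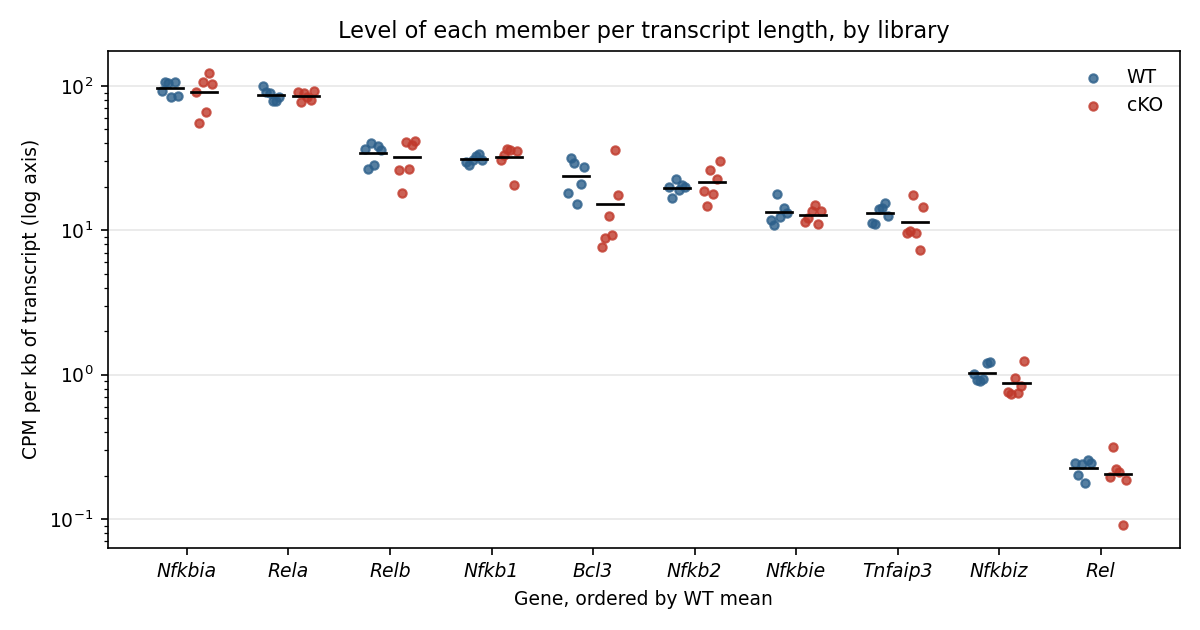
Level of each member in CPM per kb of its longest coding transcript (vertical log axis), with genes ordered by their WT mean (horizontal axis), 1 point per library and a line at the group mean. Nfkbia (mean 96.4 in WT and 90.6 in cKO) and Rela (86.9 and 85.3) sit highest, Rel (0.23 and 0.20) lowest, and WT and cKO points overlap for every gene.

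Rela encodes the main transactivating subunit of the canonical branch and was the steadiest member in cKO. It lies on chromosome 19 (5637483 to 5648130, mm10). Its lowest, median and highest CPM were 210, 235 and 249 in cKO and 212, 235 and 272 in WT. The groups thus covered nearly the same range, and the log2 fold change was -0.03 ± 0.09 (SE, 95% interval -0.22 to 0.16, adjusted p = 0.898, edgeR).

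Nfkb1 encodes p105, the precursor of p50 (chromosome 3, 135584655 to 135691547). It ran from 85.0 over a median of 141 to 150 CPM in cKO and from 117 over 126 to 138 CPM in WT. The lowest value was that of cKO 5, while the other cKO libraries lay between 126 and 150 CPM. The log2 fold change was 0.05 ± 0.12 (interval -0.22 to 0.32, adjusted p = 0.869, edgeR).

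Rel encodes c-Rel, the subunit best known in lymphocytes (chromosome 11, 23736847 to 23770970). It was read with only 17 to 65 counts per library. Its CPM was 0.68, 1.52 and 2.36 (lowest, median, highest) in cKO and 1.33, 1.81 and 1.90 in WT, and both extremes were cKO libraries, cKO 5 and cKO 2. The log2 fold change was -0.15 ± 0.24 (interval -0.68 to 0.37, adjusted p = 0.768, edgeR), an interval that reaches past a 1.5-fold decrease.

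The noncanonical pair varied together from library to library. Nfkb2 encodes p100, the precursor of p52 (chromosome 19, 46304320 to 46312385), and Relb its partner (chromosome 7, 19606217 to 19629438). Nfkb2 stood at 56.2, 79.8 and 117 CPM (lowest, median, highest) in cKO and at 64.6, 76.4 and 87.2 CPM in WT. Relb stood at 40.2, 72.6 and 91.3 CPM in cKO and at 58.9, 80.6 and 89.4 CPM in WT. Both were lowest in cKO 2 and highest in cKO 6, and among WT libraries both were lowest in WT 8 and highest in WT 9. Neither passed, with log2 fold changes of 0.14 ± 0.16 for Nfkb2 (adjusted p = 0.659) and -0.11 ± 0.19 for Relb (adjusted p = 0.802, edgeR).

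The root-mean-square difference of their centred log2 CPM over the 12 libraries was 0.18. This was the smallest of the 45 pairs of members, whose median was 0.34, and the pair was singled out after its values had been seen. Nfkb1 with Nfkbie (0.21) and Relb with Nfkbia (0.22) came next, so such closeness was not particular to the noncanonical pair. Relb ranked 108 among 10265 genes by closeness to Nfkb2. Nfkb2 passed in the model with the CNS marker component as a covariate (log2 fold change 0.40 ± 0.11, adjusted p = 0.0432, edgeR), where 1039 genes (6.92%) passed. In that model the component cannot be fully told from the group. Over the alternatives, adjusted p-values of Nfkb2 spanned 0.0432 to 0.992. Exons of Nfkb2 share 299 bases with Psd and 531 bases with a noncoding gene on the other strand. The strand setting of the counting is not given in the sources used here, and if strand was not used, reads from these shared bases cannot be assigned to 1 gene.

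**Figure D3:**
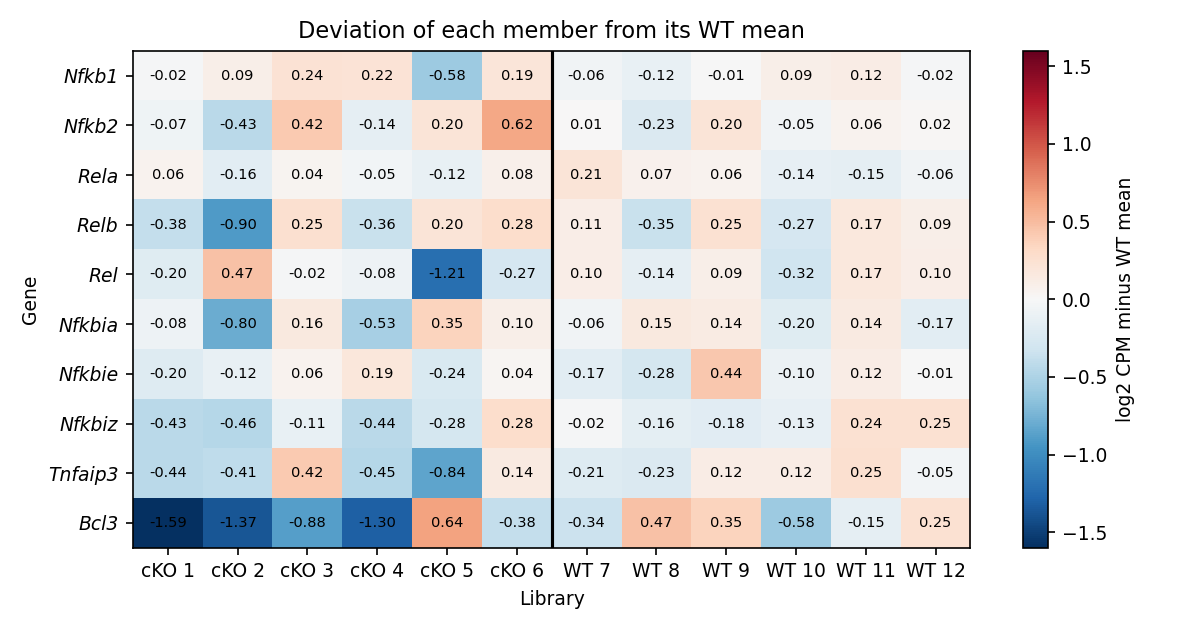
Difference of each member's log2 CPM from its WT mean (colour and printed value) by gene (vertical axis) and library (horizontal axis, cKO left of the line). Bcl3 is lowest in cKO 1 (-1.59), cKO 2 (-1.37) and cKO 4 (-1.30) and highest in cKO 5 (0.64), where Nfkb1 (-0.58), Rel (-1.21) and Tnfaip3 (-0.84) are at their lowest.

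Nfkbia encodes IkBa, the inhibitor that is degraded on stimulation and made anew by NF-kB itself (chromosome 12, 55489410 to 55492647). It ran from 86.9 over 152 to 193 CPM in cKO and from 132 over 156 to 168 CPM in WT. Libraries cKO 2 and cKO 4 (86.9 and 105 CPM) lay below every WT library, and cKO 3 and cKO 5 above. The log2 fold change was -0.09 ± 0.17 (SE, interval -0.46 to 0.28, adjusted p = 0.818, edgeR). The 2 low libraries were among the 3 with high values of the CNS marker component. A model with the component gave 0.20 ± 0.13 for Nfkbia (adjusted p = 0.377).

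Set against its target, Nfkbia was 1.06 ± 0.30 times as abundant per kb as Rela in cKO and 1.12 ± 0.15 times in WT (SD, n = 6 each). The ratio ran from 0.71 to 1.54 in cKO, around the WT range of 0.92 to 1.35. Nfkbie encodes IkBe, a slower inhibitor of the same family (chromosome 17, 45555703 to 45563169). It lay between 27.1 and 36.5 CPM in cKO and between 26.4 and 43.5 CPM in WT, and the log2 fold change was -0.06 ± 0.12 (adjusted p = 0.837, edgeR). Per kb it reached 0.15 ± 0.06 of Nfkbia in cKO and 0.14 ± 0.02 in WT.

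Tnfaip3 encodes A20, which removes ubiquitin chains from signalling proteins upstream of the kinases (chromosome 10, 19000910 to 19015657). It stood at 32.2, 43.0 and 77.1 CPM (lowest, median, highest) in cKO and at 49.1, 59.2 and 68.9 CPM in WT. In cKO 1, 2, 4 and 5 it lay below every WT library, and in cKO 3 above. The log2 fold change was -0.21 ± 0.19 (interval -0.61 to 0.19, adjusted p = 0.541, edgeR).

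Nfkbiz and Bcl3 encode nuclear IkB proteins, which bind p50 or p52 on DNA and adjust transcription there. Nfkbiz (chromosome 16, 55811375 to 55838899) was read with 66 to 105 counts per library. Its CPM was 3.05, 3.28 and 5.14 (lowest, median, highest) in cKO and 3.71, 4.0 and 5.02 in WT. It was under the WT range in cKO 1, 2, 4 and 5 and over it in cKO 6, and its log2 fold change was -0.23 ± 0.16 (adjusted p = 0.435, edgeR).

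Bcl3 (chromosome 7, 19808462 to 19822770) had the largest fold change and the largest spread of the family. In cKO 1 to 6 it stood at 14.1, 16.5, 23.1, 17.2, 66.6 and 32.7 CPM. The values of WT 7 to 12 were 33.6, 59.0, 54.3, 28.4, 38.5 and 50.6 CPM. Libraries cKO 1 to 4 lay below every WT library, cKO 6 within the WT range and cKO 5 above every WT library. The log2 fold change was -0.63 ± 0.35 (SE, interval -1.39 to 0.12, adjusted p = 0.297, edgeR; exact two-sided permutation p of CPM 0.128, n = 6 each).

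Without cKO 5, Bcl3 passed at -1.09 ± 0.24 on the log2 scale (adjusted p = 0.0130, edgeR), in a fit where 18.6% of genes passed. It also passed in limma-voom with sample weights (-1.27 ± 0.24, adjusted p = 0.00278), where 30.9% of genes passed. With the CNS marker component as a covariate, Bcl3 stood at -0.06 ± 0.24 on the log2 scale (adjusted p = 0.911), and without cKO 1 and cKO 2 together it was -0.34 ± 0.34 (adjusted p = 0.675). The component was high only in cKO libraries, so the fit with it cannot fully tell it from the group. Library cKO 5 had the lowest mean of the microglial markers (8.86 log2 CPM, against 9.12 to 9.56 in WT). Its summed level of the tested monocyte markers was the highest, at 1585 CPM, most of it Fn1. The other cKO libraries had 154 to 1179 CPM and the WT libraries 228 to 691 CPM. By the mean log2 CPM of the monocyte markers, cKO 5 (3.63) was below cKO 6 (3.70) and near WT 8 (3.61). The part of the microglial and monocyte markers in the value of Bcl3 was not tested. Exons of Bcl3 share 161 bases with the antisense gene Gm16175.

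Relb and Bcl3 stand at both ends of a span of 217 kb on chromosome 7 that also holds the apolipoprotein genes. Of the 11 genes tested in the span, 3 were called (27.3%, against 5.87% of all genes), all lower in cKO, namely Apoc2 (log2 fold change -2.33 ± 0.46, adjusted p = 0.0103), Apoc4 (-3.93 ± 0.61) and Apoc1 (-2.69 ± 0.60, edgeR). These 3 genes stand side by side. The span was described with values of these data known, so the share is not a test and does not extend to Relb or Bcl3. Apoe, with all cKO libraries lower than the lowest WT library, just missed the threshold (-1.94 ± 0.55, adjusted p = 0.0547). The tested genes nearest to Relb and to Bcl3 on the inner side, Clptm1 (-0.08 ± 0.09, adjusted p = 0.671) and Bcam (0.28 ± 0.21, adjusted p = 0.451), did not pass.

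Relative to its mean, 8 of the 10 members spread more widely among cKO than among WT libraries. The coefficient of variation of Bcl3 was 70.1% in cKO and 28.0% in WT, and that of Nfkb1 was 18.7% and 6.34%. Rela and Nfkbie were the exceptions, with 7.09% and 11.7% in cKO against 9.75% and 18.8% in WT. Among all genes tested, 80.7% had the larger coefficient in cKO, so the share of members was like that of other genes.

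Genes whose profile over the 12 libraries was closest to that of Nfkb1 were Gm14026, Ccdc93 and Gm17029, with root-mean-square differences of centred log2 CPM of 0.07, 0.08 and 0.08 against a median of 0.33 over 10265 genes. For Nfkbia they were Ndufb2, a subunit of mitochondrial complex I, Pigx, of glycolipid anchor synthesis, and Clybl, a mitochondrial enzyme, with differences of 0.11, 0.11 and 0.11 against a median of 0.38. None of the 6 is a member of the family or of the pathway lists.

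Elsewhere in the pathway, 8 of 105 tested genes fell in cKO and none rose (7.62% against 3.43% of all genes called lower, edgeR). The median log2 fold change of the 105 genes was -0.13, against 0.03 for all genes, and 73 of them (69.5%) had a negative value, as had 45.4% of all genes. The lists were chosen with earlier results of these data known, so these shares are not a test. The count depended on the fit. Without cKO 5, 20 of the 105 were lower and none higher, where 18.6% of all genes were called in either direction. Without cKO 6, 14 were lower and none higher, where 9.29% of all genes were called in either direction. DESeq2 called 14 lower and 1 higher (12.3% of all genes called), limma-voom with sample weights 40 lower and 3 higher (30.9%), and the model with the CNS marker component 8 lower and 3 higher (6.92%). The shares in brackets also count both directions. The cKO libraries were all lower than the lowest WT library for 6 of the 8, Il1r1, Tlr1, Map3k14, Pdlim2, Ebi3 and Cd80. These 8 were picked by their calls, so the count cannot be set against the 2.8% of all genes tested. Tlr9 and Ikbkb, which were not called (adjusted p = 0.0734 and 0.0834, edgeR), also had all cKO libraries lower.

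Of 17 receptors tested, 2 fell. There were 4 lower without cKO 5 or without cKO 6, by DESeq2 and with the CNS marker component. By limma-voom 7 were lower and 2 higher. For this and the following lists, the counts stand beside the shares of all genes called in either direction. These shares were 18.6% without cKO 5, 9.29% without cKO 6, 12.3% by DESeq2, 30.9% by limma-voom and 6.92% with the CNS marker component. Il1r1, the signalling receptor of interleukin-1, was at 2.09 ± 0.76 CPM in cKO against 5.88 ± 1.13 CPM in WT (SD, n = 6 each; log2 fold change -1.50 ± 0.23, SE, adjusted p = 0.00223, edgeR). Tlr1, which pairs with Tlr2 to sense bacterial lipopeptides, fell by 0.49 ± 0.10 on the log2 scale (adjusted p = 0.0103). Of 23 adaptors and ubiquitin ligases, none passed by edgeR (2 had an unadjusted p under 0.05, against 23.8% of all genes). DESeq2 also called none, while 4 were lower by limma-voom with sample weights and 3 without cKO 5. The smallest p-values there were those of Ticam1, the TRIF adaptor of Tlr3 and Tlr4 (-0.30 ± 0.10, adjusted p = 0.0834), Ripk2 (-0.27 ± 0.10, adjusted p = 0.120) and Traf5 (-0.18 ± 0.09, adjusted p = 0.238).

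Of 11 kinases and their partners, 1 fell, the noncanonical kinase gene Map3k14 (3 without cKO 5 or by DESeq2, 2 without cKO 6 and 5 by limma-voom). It was at 15.9 ± 2.52 CPM in cKO against 24.03 ± 1.85 CPM in WT (log2 fold change -0.60 ± 0.12, adjusted p = 0.00978, edgeR) and passed in all 20 alternative settings. The catalytic subunits of the IkB kinase, Ikbkb (-0.23 ± 0.08, adjusted p = 0.0834) and Chuk (-0.20 ± 0.13, adjusted p = 0.382), and the scaffold Ikbkg (0.00 ± 0.10, adjusted p = 0.993) did not pass. For Ikbkb all cKO libraries (68.7 ± 5.46 CPM, SD) were lower than the lowest WT library (80.7 ± 3.26 CPM in WT), while those of Chuk and Ikbkg overlapped.

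Of 21 other inhibitors, 2 fell (5 without cKO 5, 3 without cKO 6 or by DESeq2, and 8 by limma-voom). Only 1 was lower without any 1 of cKO 1, 2 and 4 and WT 8 to 12 (3.03% to 4.47% of all genes called). The same held without cKO 1 and cKO 2 together (2.75%) and with the CNS marker component. Pdlim2, a nuclear ubiquitin ligase that marks RelA for breakdown, was at 20.4 ± 4.54 CPM in cKO against 39.9 ± 4.62 in WT (log2 fold change -0.97 ± 0.14, adjusted p = 0.00119, edgeR) and passed in all 20 alternative settings. Zc3h12a, the ribonuclease Regnase-1 that degrades inflammatory mRNAs, fell by 0.64 ± 0.17 on the log2 scale (adjusted p = 0.0444). Its call was lost without any 1 of cKO 1, 2, 3 and 4 and WT 8, 9, 10, 11 and 12, without cKO 1 and cKO 2 together (log2 fold change -0.50 ± 0.18) and with the CNS marker component (-0.36 ± 0.13), with adjusted p up to 0.189.

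Of 33 target genes tested, 3 fell (2 to 5 without single libraries, with 5 without cKO 5 or without cKO 6, and 16 by limma-voom). Log2 fold changes of the 33 ran from -2.23 to 1.26, with 20 negative and 13 positive. With the CNS marker component 2 were lower and 3 higher. DESeq2 called 4 lower and 1 higher, and limma-voom also called 1 higher. Ebi3, a subunit of the cytokines IL-27 and IL-35, was at 10.5 ± 3.05 CPM in cKO against 49.0 ± 9.22 in WT (log2 fold change -2.23 ± 0.20, adjusted p = 5.3e-05, edgeR). Cd80, a costimulatory ligand of T cells, was at 1.93 ± 0.84 CPM in cKO against 4.83 ± 1.18 in WT (-1.32 ± 0.28, adjusted p = 0.0149). Ccrl2, a chemerin-binding receptor, fell by 0.84 ± 0.21 on the log2 scale (adjusted p = 0.0335), a call lost without any 1 of cKO 1, 2 and 4 and WT 7, 9, 10, 11 and 12, without cKO 1 and cKO 2 together (log2 fold change -0.71 ± 0.22) and with the CNS marker component (-0.58 ± 0.21), with adjusted p up to 0.118. Another 5 target genes, Il6, Il12b, Cxcl1, Cxcl2 and Ptgs2, were read with at most 23 counts in any library and were not tested.

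**Figure D4:**
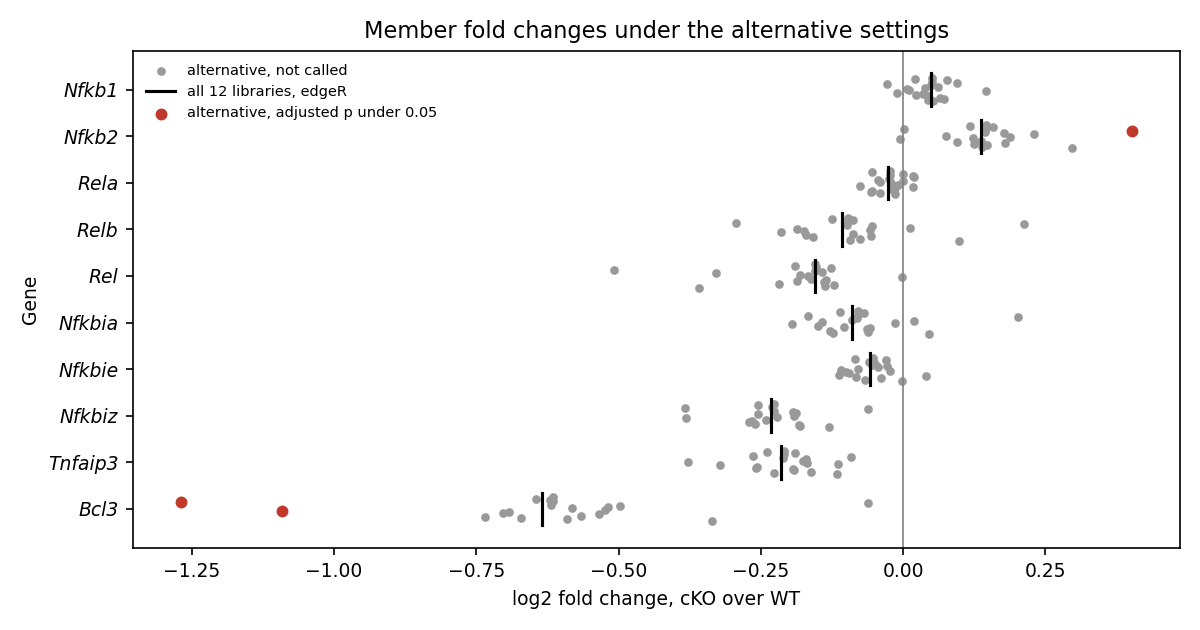
Log2 fold change of cKO over WT (horizontal axis) of each member (vertical axis) in the edgeR fit of all 12 libraries (black bar) and under each alternative setting (points). Red points mark an adjusted p under 0.05, which Bcl3 reached in 2 settings (-1.27 and -1.09) and Nfkb2 in 1 (0.40).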

How the data were processed

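Per the submitters' processing notes, reads were handled with bcl2fastq 2.17, FastQC and Trimmomatic on the build mm10, and per the labels the library kit was stranded. The aligner, counter, strand setting and gene annotation were not given in the sources used here. Raw counts per gene were deposited for 12 libraries. Symbols (37607 of 39017 IDs), coordinates and transcript lengths came from GENCODE M21 (mm10).

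The groups were compared with edgeR 4.0.16 in R 4.3.3 (filterByExpr at its defaults, TMM, robust quasi-likelihood test, adjusted p under 0.05), tested on simulated data. The SE is the absolute log2 fold change over the root of the F statistic, and log2 CPM used a prior count of 2. Levels per kb used the longest coding transcript of the GENCODE basic set. All pairs of libraries differed beyond sampling noise (chi-square at least 22.1 times its degrees of freedom). The floor of 3 counts was 0.114 to 0.158 CPM per library and covers counting error only.

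The members, lists and tests were chosen with earlier results of these data known. Named genes are the members, Kdm6a, called genes of each list (at most 6, or else the 3 of smallest p) and the 3 nearest profiles of Nfkb1 and Nfkbia among genes of at least 5 CPM. Tlr9, Kdr, Ikbkb, Chuk, Ikbkg and the tested genes nearest to Relb and Bcl3 were chosen after their values were seen. Alternatives were a mean of at least 5 CPM, no filter, RLE scaling, DESeq2 1.42.0, limma-voom (3.58.1) with sample weights, the CNS marker component (first principal component of the markers), totals without Apoe, the omission of each library, and that of cKO 1 and cKO 2 together.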

Additional observations from a re-analysis of the deposited data

Results flagged for a closer look

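Values of each member were searched for libraries that stand apart, in both groups of 6, and 2 of these 20 sets held one. Chance gives about 1 in 20. Both were in cKO 5. Bcl3 stood there at 66.6 CPM, with the next cKO library at 32.7 CPM. Nfkb1 stood there at 85.0 CPM, with the next at 125.7 CPM. The gap to the nearest library was 0.645 of the range of cKO for Bcl3 and 0.628 for Nfkb1, where 0.625 is the limit for 6 values.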

How the results depend on the processing

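The number of genes called was 882, and 1843 by DESeq2, 4639 by limma-voom with sample weights and 1039 with the CNS marker component. It was 416 without cKO 1 and cKO 2 together and 460 to 2818 without single libraries. The number of members called was 0, 0 to 1 without single libraries (Bcl3 without cKO 5), 1 by limma-voom (Bcl3) and 1 with the CNS marker component (Nfkb2). The cause was not tested.

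Members that changed sign were not called in either fit. With the CNS marker component, Nfkb1 stood at -0.029, Rela at 0.019, Relb at 0.21 and Nfkbia at 0.20. With a minimum of 5 CPM Rela was at 0.00018 and by limma-voom at 0.017. Without cKO 1 and cKO 2 together Relb was at 0.099 and Nfkbia at 0.045. Without single libraries Nfkb1 ran from -0.011 (cKO 6) to 0.15, Nfkb2 from -0.0048 (cKO 6) to 0.23, Rela from -0.077 to 0.017 (WT 7), Relb from -0.21 to 0.013 (cKO 2), Nfkbia from -0.20 to 0.020 (cKO 2) and Nfkbie from -0.11 to 0.040 (WT 9). Rel, Nfkbiz, Tnfaip3 and Bcl3 kept a negative value in every alternative that tested them. A minimum of 5 CPM left Rel and Nfkbiz untested.

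No paired analysis was possible because the groups share no replicate number. Counts of 17 to 65 per library limit Rel.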
